A study of Mus musculus with 2 samples.

Results

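Transcripts of 7 genes for immunosuppressive and tissue-repair cytokines and their receptors were followed through the cells of a mouse melanoma: the ligand genes Il10, Tgfb1, Ebi3 and Areg and the receptor genes Il10ra, Tgfbr1 and Tgfbr2. They were taken by their symbols, and all 7 were found among the 14654 genes of the count table. The tumors were of YUMMER1.7, an immunogenic BRAF-mutant mouse melanoma line, grown for 11 days under the skin of male C57BL/6 mice aged 8 weeks. Hosts were either wild type (WT) or Siah2-/-, lacking the gene of a RING-type ubiquitin ligase, while the grafted melanoma cells came from the same line in both. CD45+ cells, the leukocytes, were sorted from the tumors, a smaller part of CD45- cells was mixed back, and 1 droplet library with 3′ tags was made from each genotype. The sources used here do not give the number of tumors behind a library.

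Interleukin 10 (IL-10) is released by regulatory T cells (Tregs), other CD4 T cells and macrophages. It acts through a receptor whose ligand-binding chain is encoded by Il10ra, and it restrains antigen presentation and inflammatory cytokine release. Transforming growth factor β1 (TGF-β1) is made by most leukocytes in a latent form, and once freed it binds TGFBR2, which then recruits and activates TGFBR1, so that both chains are needed for the SMAD signal. Ebi3 encodes the chain that IL-27 and IL-35 share, and Areg encodes amphiregulin, a ligand of the epidermal growth factor receptor that tumor and tissue Tregs are known to make.

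From WT tumors 4512 cells entered, with 64783869 unique molecular identifiers (UMIs, each a captured transcript), and from Siah2-/- tumors 5563 cells with 59082428 UMIs. Cells held 11435 and 8699 UMIs at the median. No WT cell had fewer than 6670 UMIs and no Siah2-/- cell fewer than 4896, and 34 cell barcodes occurred in both libraries. Siah2 itself had 660 UMIs in WT and 505 in Siah2-/- cells, or 10.2 and 8.55 counts per 1e6 UMIs (CPM). The deleted stretch is not known here, so a 3′ tag does not check the genotype label, and Siah2-/- below means the library labelled so. With 1 library per genotype there was no replicate and no test across samples. The 95% intervals cover counting error only, and genotype, tumor pool, library and sequencing lane cannot be told apart. Below, a difference beyond counting error is one whose 95% interval of the log2 ratio of Siah2-/- to WT lies wholly on 1 side of 0, which says that the libraries differed and not that the genotypes did.

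Cells were assigned from their own marker UMIs. T cells were gated on Cd3d, Cd3e and Cd3g, natural killer (NK) cells on Ncr1, Klrb1c and Klre1, macrophages on Csf1r, Adgre1 and Fcgr1, and the cells outside the leukocytes on the collagen genes Col1a1, Col1a2 and Col3a1 with Dcn. A T cell with a UMI of Foxp3, the lineage factor of Tregs, was called Treg, and this gave 82 cells in WT and 102 in Siah2-/-. Ikzf2 (Helios), which the gate did not use, was detected in 95.1% and 87.3% of them. There were 15 and 241 CD4 T cells without Foxp3, 358 and 721 CD8 T cells, 199 and 472 T cells that also carried NK receptors, and 391 and 642 NK cells. Macrophages numbered 2014 and 2368, dendritic cells (DC) 50 and 40, mature DC 45 and 67, and CD45-negative cells 767 and 151. The DC gate was narrow, and many cells of the DC-led cluster reached no gate or a mixed one. Barcodes with both T cell and macrophage markers, 331 in WT and 373 in Siah2-/-, were kept apart. Macrophages were split by their highest marker score into states, of which the Mgl2, Folr2, interferon and monocyte-like ones are reported, with cycling cells separate. These states are ranges of a score, and 17.8% of WT and 20.4% of Siah2-/- macrophages had scores for 2 states within 0.25 of each other.

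On the GRCm38 genome with the GENCODE M21 annotation, all 7 are protein-coding genes. Il10 lies on chromosome 1 (131019845 to 131024974, plus strand), Tgfb1 on chromosome 7 (25687002 to 25705077, plus), Ebi3 on chromosome 17 (55952640 to 55957022, plus) and Areg on chromosome 5 (91139599 to 91148432, plus). Of the receptor genes, Il10ra lies on chromosome 9 (45253837 to 45269149, minus), Tgfbr1 on chromosome 4 (47353222 to 47414931, plus) and Tgfbr2 on chromosome 9 (116084293 to 116175360, minus). Areg had the widest range of log2 ratios between the libraries over the gates, so the 250 bases before its start are shown from RefSeq (GRCm38.p6, chr5:91139349-91139598, plus strand). Capitals mark a cAMP response element (CRE, TGACGTCA) from 61 to 54 bases before the start and a TATA box (TATAAA) from 31 to 26 bases before it, which do not overlap.
Areg: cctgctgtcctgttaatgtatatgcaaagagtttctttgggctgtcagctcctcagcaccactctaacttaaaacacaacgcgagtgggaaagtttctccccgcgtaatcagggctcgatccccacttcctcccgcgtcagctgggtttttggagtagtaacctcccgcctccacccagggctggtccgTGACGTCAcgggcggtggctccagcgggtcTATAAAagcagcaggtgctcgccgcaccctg
On both strands, TGACGTCA was found in 1.55% and TATAAA in 12.4% of 32851 RefSeq promoter windows of this length. TGANTCA, the AP-1 site, stood in 6.75% of the windows and not in that of Areg. None of these 3 motifs was found in the windows of Tgfb1, Tgfbr1, Tgfbr2 or Ebi3. These are matches of letters and no measure of binding.

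Among the gates, the CPM of Il10 was highest in Foxp3-positive and other CD4 T cells in both libraries, and its level in Tregs was higher in Siah2-/-. In WT Tregs 38 Il10 UMIs gave 42.5 CPM (30.0 to 58.3), and in Siah2-/- Tregs 204 UMIs gave 208 CPM (181 to 239). The intervals did not overlap, and the log2 ratio of Siah2-/- to WT was 2.29 (1.79 to 2.83). Areg moved with it in Tregs, from 28 UMIs and 31.3 CPM (20.8 to 45.2) to 99 UMIs and 101 CPM (82.1 to 123), a log2 ratio of 1.69 (1.07 to 2.35). Tgfb1, by contrast, stood at 124 CPM (102 to 149) and 116 CPM (96.0 to 140), and its ratio of -0.09 (-0.48 to 0.30) was within counting error. Of the 7 genes, Il10 and Areg were at least 2-fold higher and Tgfbr1 at least 2-fold lower in Siah2-/- Tregs. Among the 6795 genes with at least 20 UMIs in this gate, 3.96% were at least 2-fold higher and 4.02% at least 2-fold lower. The same 3 members were those beyond counting error, where 8.08% of genes were higher and 11.6% lower. C1qa, a macrophage transcript, had a UMI in 39.0% of WT and 55.9% of Siah2-/- Tregs, against 36.1% and 40.0% of NK cells. Free RNA, scaled to such genes, would give 3.24 and 2.28 Il10 UMIs in Tregs.

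**Figure D1:**
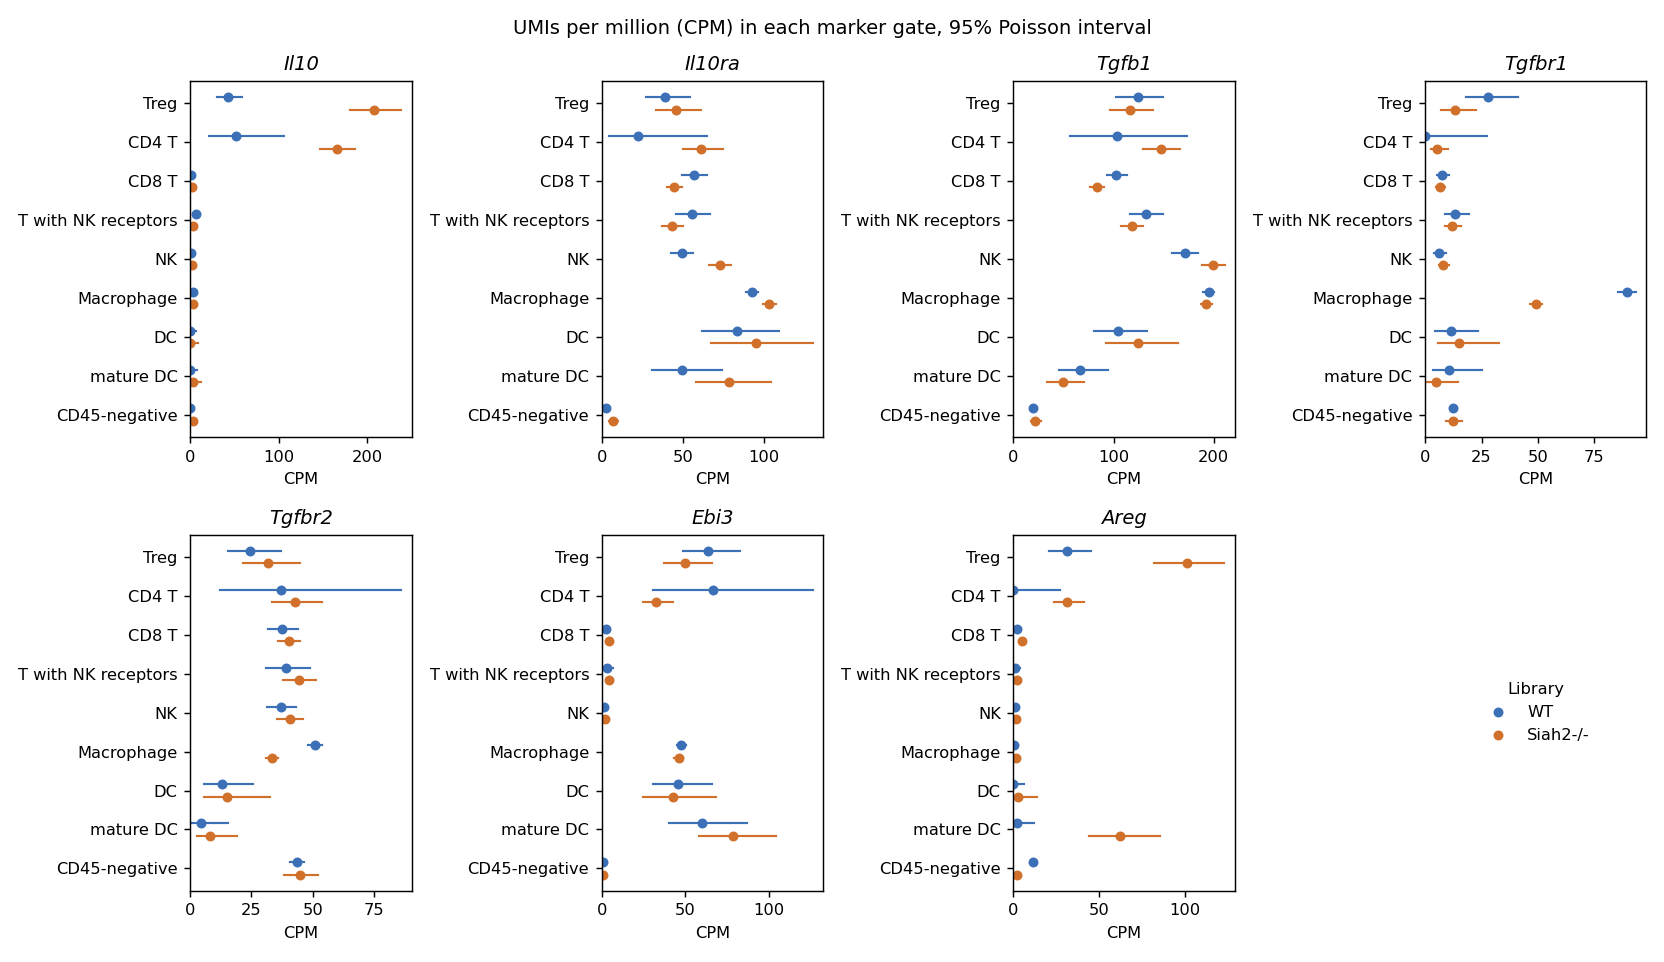
CPM (x axis) of each of the 7 genes in 9 marker gates (y axis), 1 panel per gene. Points are the libraries, WT in blue and Siah2-/- in orange, and lines are 95% Poisson intervals for counting error. Il10 stands at 42.5 and 208 CPM in Tregs and under 7 CPM in the gates other than Treg and CD4 T, while Tgfb1 is spread over all leukocyte gates.

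The Il10 difference lay in the number of positive Tregs and in the UMIs of each. An Il10 UMI was found in 15 of 82 WT Tregs (18.3%) and 36 of 102 Siah2-/- Tregs (35.3%). After each cell was thinned to 2000 UMIs, the shares were 7.32% and 25.5%. In NK cells, which are not a known main source of this cytokine, the thinned shares were 0.256% and 0.156%, where the median depth was 9265 and 7913 UMIs against 9363 and 7247 in Tregs. Positive WT Tregs held a median of 1 Il10 UMI and at most 8, and positive Siah2-/- Tregs a median of 3 and at most 20. Cells with 10 UMIs or more made up 7.84% of Siah2-/- Tregs and 0 of 82 WT Tregs. The top WT cell held 21.1% of the WT UMIs and the top Siah2-/- cell 9.80%, and without both cells the ratio was 2.46.

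**Figure D2:**
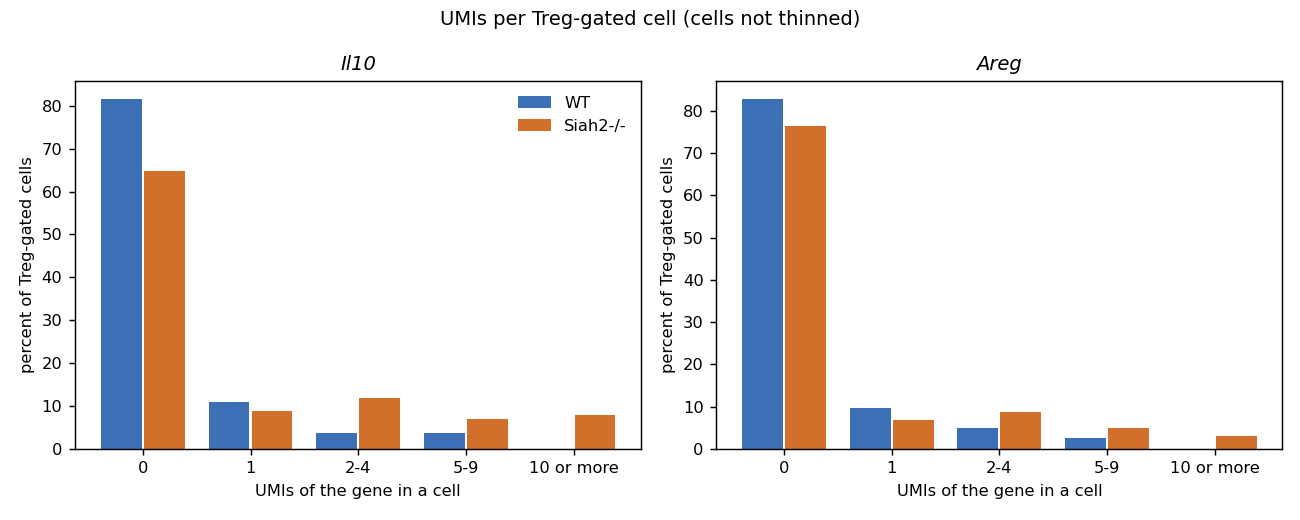
Percent of Treg-gated cells (y axis) by the number of Il10 or Areg UMIs in the cell (x axis), for 82 WT cells (blue) and 102 Siah2-/- cells (orange), cells not thinned. Cells with 10 or more Il10 UMIs appear in the Siah2-/- library alone, at 7.84% of its Tregs.

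Within Tregs the Il10 ratio was above 0 in each subset examined. In cells with 1 Foxp3 UMI, Il10 was at 53.6 CPM in WT and 145 CPM in Siah2-/- (log2 ratio 1.44, 0.55 to 2.42). In cells with 2 or more Foxp3 UMIs, it was at 37.9 and 237 CPM (2.65, 2.02 to 3.33). Cells with proliferation markers, 41 of the WT and 21 of the Siah2-/- Tregs, gave 2.09 (1.22 to 3.03), and the remaining 41 and 81 cells gave 2.08 (1.44 to 2.80). For Areg the ratio was 0.97 (0.13 to 1.83) in cycling Tregs and 3.35 (1.93 to 5.26) in the others, where 4 WT UMIs stood against 72. In cells with 1 Foxp3 UMI the Areg ratio was 0.85 (-0.53 to 2.39), within counting error. After thinning, 6 of 26 Il10-positive Siah2-/- Tregs (23.1%, 8.97 to 43.7) and 7 of 76 Il10-negative ones (9.21%, 3.78 to 18.1) held an Areg UMI, and these exact binomial intervals overlap.

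The size of the Treg difference depended on which barcodes were kept, and its direction did not. The authors' cell set held 16.8% of the WT and 37.0% of the Siah2-/- Treg-gated barcodes with at least 1000 UMIs. Over all of those, 487 in WT and 276 in Siah2-/-, Il10 was at 145 CPM (130 to 162) and 276 CPM (252 to 303), and the log2 ratio was 0.93 (0.72 to 1.14). It was 2.16 (1.70 to 2.63) in barcodes of 1000 to 2999 UMIs and 0.62 (0.27 to 0.97) in those of 3000 to 4895. In barcodes of 4896 to 6669 UMIs, which the authors' set keeps in Siah2-/- alone, it was 0.56 (0.07 to 1.06), and in deeper ones 1.40 (0.91 to 1.91). Adding Foxp3-positive barcodes that also carried macrophage markers to the gate lowered the ratio to 1.34 (1.03 to 1.66). Areg was at 66.9 and 162 CPM over the wider set (1.28, 0.98 to 1.58), and its ratio in the 4 ranges, from shallow to deep, was 1.18, 1.89, 0.37 and 1.03, of which 0.37 (-0.30 to 1.05) was within counting error.

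**Figure D3:**
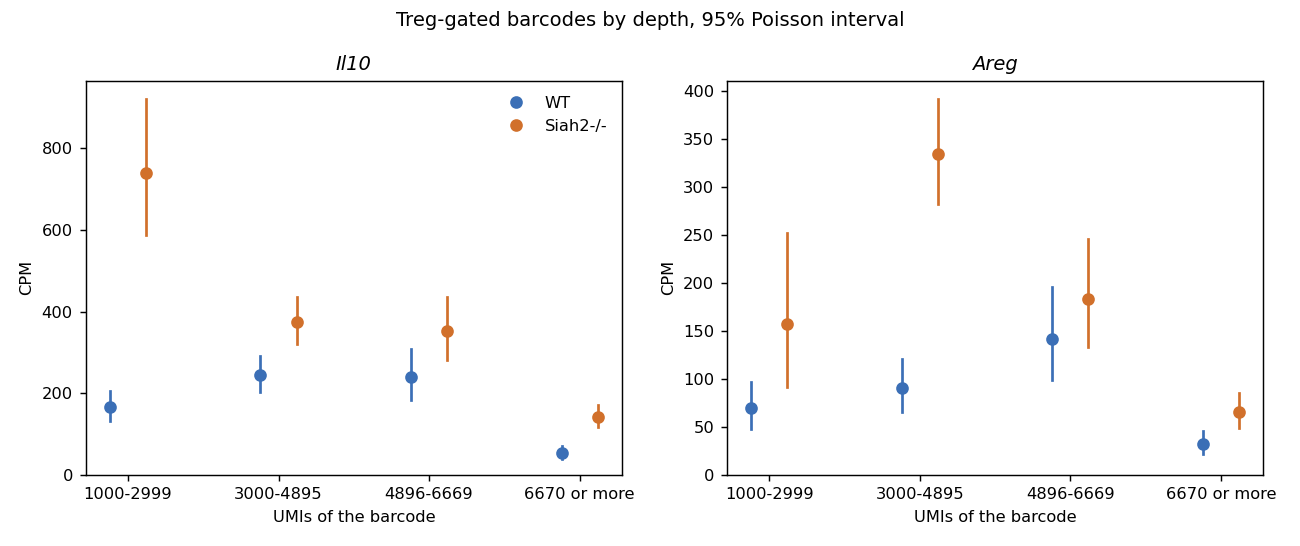
CPM of Il10 and Areg (y axis) in Treg-gated barcodes grouped by their UMI count (x axis), WT in blue and Siah2-/- in orange, with 95% Poisson intervals. Siah2-/- is above WT in every range for both genes, from a log2 ratio of 0.56 to 2.16 for Il10. The intervals overlap at 4896 to 6669 UMIs for both genes and at 1000 to 2999 UMIs for Areg.

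Other CD4 T cells held more Il10 UMIs than Tregs in Siah2-/-, and in WT only 15 such cells were among those analysed. The WT library held 7 Il10 UMIs in 2 of 15 cells, 71.4% of them in 1 cell, and the Siah2-/- library held 276 UMIs in 25 of 241 cells, 24.6% of them in 1 cell. The levels were 51.7 CPM (20.8 to 106) and 166 CPM (147 to 187), a log2 ratio of 1.69 (0.62 to 3.01). The direction in this gate depended on the barcodes kept. Over barcodes with at least 1000 UMIs, 269 in WT and 612 in Siah2-/-, there were 86 and 461 Il10 UMIs and the ratio was 0.82 (0.48 to 1.17). It was 1.59 (0.68 to 2.58) at 1000 to 2999 UMIs, -0.58 (-1.06 to -0.10) at 3000 to 4895, where WT was higher, and 1.69 (0.60 to 3.03) at 6670 or more, while the 20 WT barcodes of 4896 to 6669 UMIs held no Il10 UMI, which allows up to 32.8 CPM by the exact Poisson interval. In Siah2-/- the intervals of this gate and of Tregs overlapped. Of the members, Il10 and Areg were beyond counting error in the cells analysed, where 5.53% of 6506 genes were higher and 7.33% lower. Il10ra was within it there but beyond it over barcodes with at least 1000 UMIs, at 0.69 (0.18 to 1.22). Areg had 0 UMIs in the 15 WT cells and 52 UMIs in 15 of the 241 Siah2-/- cells, 32.7% of them in 1 cell. That is 31.3 CPM, against 22.1 CPM for the floor of 3 counts in WT. The lower 95% limit of the log2 ratio was 0.15, and without the top Siah2-/- cell it was -0.44, so that 1 cell decided the call. Over barcodes with at least 1000 UMIs there were 20 and 107 Areg UMIs, and the ratio was 0.82 (0.12 to 1.58). Of all Il10 UMIs in the cells analysed of a library, Tregs held 14.0% in WT and 24.3% in Siah2-/-, CD4 T cells 2.58% and 32.9%, and macrophages 30.3% and 10.1%. These shares depended on the barcodes kept. Over barcodes with at least 1000 UMIs Tregs held 313 and 453 Il10 UMIs and macrophages 93 and 114. In WT Tregs thus held more than macrophages there, the reverse of the cells analysed. Over all cells Il10 stood at 4.18 and 14.2 CPM.

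Among the cells analysed, much of the WT signal lay in barcodes outside the named gates. Barcodes with both T cell and macrophage markers held 110 Il10 UMIs in WT and 112 in Siah2-/-, or 40.6% and 13.4% of the Il10 in each library's analysed cells. The share over barcodes with at least 1000 UMIs, where WT Tregs alone held 313 Il10 UMIs, is not given here. The levels in the analysed barcodes with both markers, 20.6 and 18.9 CPM, did not differ beyond counting error (-0.12, -0.52 to 0.27). Whether these barcodes are doublets was not tested. Scrublet, a doublet caller, marked 0.266% and 0.0180% of cells and has not worked on these libraries.

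Macrophages had little Il10 per cell. Their levels were 3.56 CPM (2.83 to 4.42) in WT and 3.45 CPM (2.76 to 4.27) in Siah2-/-, and the ratio of -0.04 (-0.50 to 0.41) was within counting error. With every gate limit doubled, called the stricter gate here, the ratio was -0.70 (-1.09 to -0.31). Doubling also raised the limits that set mixed barcodes apart, so macrophages with some T cell markers could enter. Over barcodes of at least 1000 UMIs the ratio was 0.45 (0.04 to 0.86), so its sign depended on the gate and the barcodes kept. Among the states reported, Il10 was highest in the Folr2 state, at 8.09 CPM (5.85 to 10.9) in WT and 7.19 CPM (3.83 to 12.3) in Siah2-/-, and the interval of the interferon state (4.53 and 6.20 CPM) overlapped it. A single cell held 20.9% and 23.1% of the Folr2-state UMIs, and 27.3% of those of the Siah2-/- interferon state. As gated, only the monocyte-like state of these went beyond counting error, with 2 and 16 UMIs (2.16, 0.08 to 5.33), where 10.8% of 8600 genes were higher, and with the stricter gate it was 1.28 and within counting error. The Mgl2 state went from 0.66 to -1.78 (-2.83 to -0.83) with the stricter gate, and the interferon state to 1.39 (0.24 to 2.60) over barcodes with at least 1000 UMIs. Empty droplets, with 10 to 100 UMIs, held Il10 at 28.8 and 31.5 CPM, above the level in macrophages. Scaled to Gzma, Gzmc, Gzmd and Gzmf, which macrophages lack, free RNA would give 40.4 of the 82 WT and 48.8 of the 85 Siah2-/- Il10 UMIs in macrophages, 6.40 of 43 and 3.89 of 13 in the Folr2 state and 12.9 of 18 and 5.89 of 22 in the interferon state. With it subtracted the interferon ratio moved from 0.45 to 1.81.

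The remaining gates held few Il10 UMIs. CD8 T cells had 3 and 14 and NK cells 2 and 12, and neither ratio left counting error as gated. By cluster the ratio was 2.43 (1.10 to 4.12) in CD8 T cells and 2.64 (0.58 to 5.79) in NK cells, both beyond it, as was the NK ratio of 1.96 (0.35 to 3.99) over barcodes with at least 1000 UMIs. With the stricter gate the CD8 T ratio was -0.48 (-1.70 to 0.76). Free RNA alone would give 5.70 and 14.2 UMIs in CD8 T cells and 3.92 and 10.9 in NK cells, so that these counts were at the level of background. T cells with NK receptors had 13 and 10 UMIs, and their ratio of -1.33 (-2.68 to -0.03) rested on 1 WT cell with 84.6% of the WT UMIs. Without the top cell of each library it was 1.04 (-1.28 to 4.32). CD45-negative cells had 5 and 10 UMIs, or 0.252 and 2.64 CPM (3.39, 1.70 to 5.28), where free RNA would give 21.7 and 6.38. A UMI of Ptprc, the CD45 gene, was found in 27.8% of the Siah2-/- cells of this gate, and Ptprc was at 7.62 CPM in WT and 18.2 CPM in Siah2-/-. The part of leukocyte RNA in this Il10 difference was not tested. No Il10 UMI was found in 50 WT or 40 Siah2-/- DC.

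Tgfb1 was present in every leukocyte gate and at like levels in both libraries. In WT it was highest in monocyte-like macrophages (245 CPM, 224 to 268), followed by the Mgl2, interferon and Folr2 states at 189 to 193 CPM, whose intervals overlapped each other. NK cells stood at 171, Tregs at 124, CD8 T cells at 103 and mature DC at 66.5 CPM, 22.6% of it in 1 cell. CD45-negative cells, at 19.5 CPM in WT and 21.9 CPM in Siah2-/-, were the lowest, and their intervals did not overlap those of mature DC. The order in Siah2-/- was the same at its ends, with 268 CPM in monocyte-like macrophages, and NK cells came second at 200 CPM. Macrophages as a whole were at 195 CPM (189 to 201) and 193 CPM (187 to 198), a ratio of -0.02 (-0.08 to 0.04).

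Small Tgfb1 differences ran in opposite directions in the cytotoxic lymphocytes. NK cells had 692 UMIs in WT and 1154 in Siah2-/-, and went from 171 CPM (159 to 184) to 200 CPM (188 to 211), a ratio of 0.22 (0.08 to 0.36). Among 9735 genes in NK cells, 16.6% were higher and 9.28% lower beyond counting error. CD8 T cells had 420 and 614 UMIs, 103 CPM (93.3 to 113) and 83.3 CPM (76.8 to 90.2), a ratio of -0.31 (-0.49 to -0.12), which was -0.16 and within counting error over barcodes with at least 1000 UMIs. The interferon macrophages stood at 191 and 160 CPM (-0.26, -0.42 to -0.10), and by cluster the ratio was -0.10 (-0.32 to 0.13), within counting error. Over all cells Tgfb1 was at 124 and 155 CPM, a ratio of 0.32 (0.27 to 0.36), although no ratio within Tregs, macrophages as a whole, DC or CD45-negative cells left counting error. CD45-negative cells, the gate with the lowest Tgfb1, made up 17.0% of WT and 2.71% of Siah2-/- cells.

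The receptor genes for TGF-β were lower in Siah2-/- macrophages, and Tgfbr1 was so in every macrophage state reported. Tgfbr1, the type I kinase chain, had 2061 UMIs in WT and 1207 in Siah2-/- macrophages, or 89.4 CPM (85.6 to 93.4) and 49.0 CPM (46.3 to 51.8). The log2 ratio was -0.87 (-0.97 to -0.77), and it lay between -0.88 and -0.82 under all 9 alternative settings. A Tgfbr1 UMI was found in 56.2% of WT and 34.0% of Siah2-/- macrophages, and in 15.8% and 8.95% after thinning. Tgfbr2, the ligand-binding chain, had 1170 and 821 UMIs, or 50.8 CPM (47.9 to 53.8) and 33.3 CPM (31.1 to 35.7), a ratio of -0.61 (-0.74 to -0.48). In this gate Tgfbr1 and Tgfbr2 were lower and Il10ra and Areg higher beyond counting error, where 27.7% of 11843 genes were lower and 19.9% higher, so that such a call was common.

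The Tgfbr1 ratio was -1.14 (-1.42 to -0.85) in the interferon state, from 90.3 to 41.1 CPM, and -0.95 (-1.32 to -0.58) in the monocyte-like state, from 63.8 to 33.0 CPM. It was -0.81 in the Mgl2 state, which had the highest level in both libraries (105 and 60.1 CPM), -0.62 in the Folr2 state and -0.54 (-0.90 to -0.20) in cycling macrophages, where it was -0.35 (-0.78 to 0.07) with the stricter gate. The states held different numbers of cells, with 420 WT and 127 Siah2-/- cells in the Folr2 state. Genes higher and lower beyond counting error were 11.6% and 12.0% in the interferon state, 10.8% and 14.4% in the monocyte-like, 14.1% and 12.2% in the Mgl2, 9.14% and 8.97% in the Folr2 and 9.09% and 7.69% in the cycling state.

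**Figure D4:**
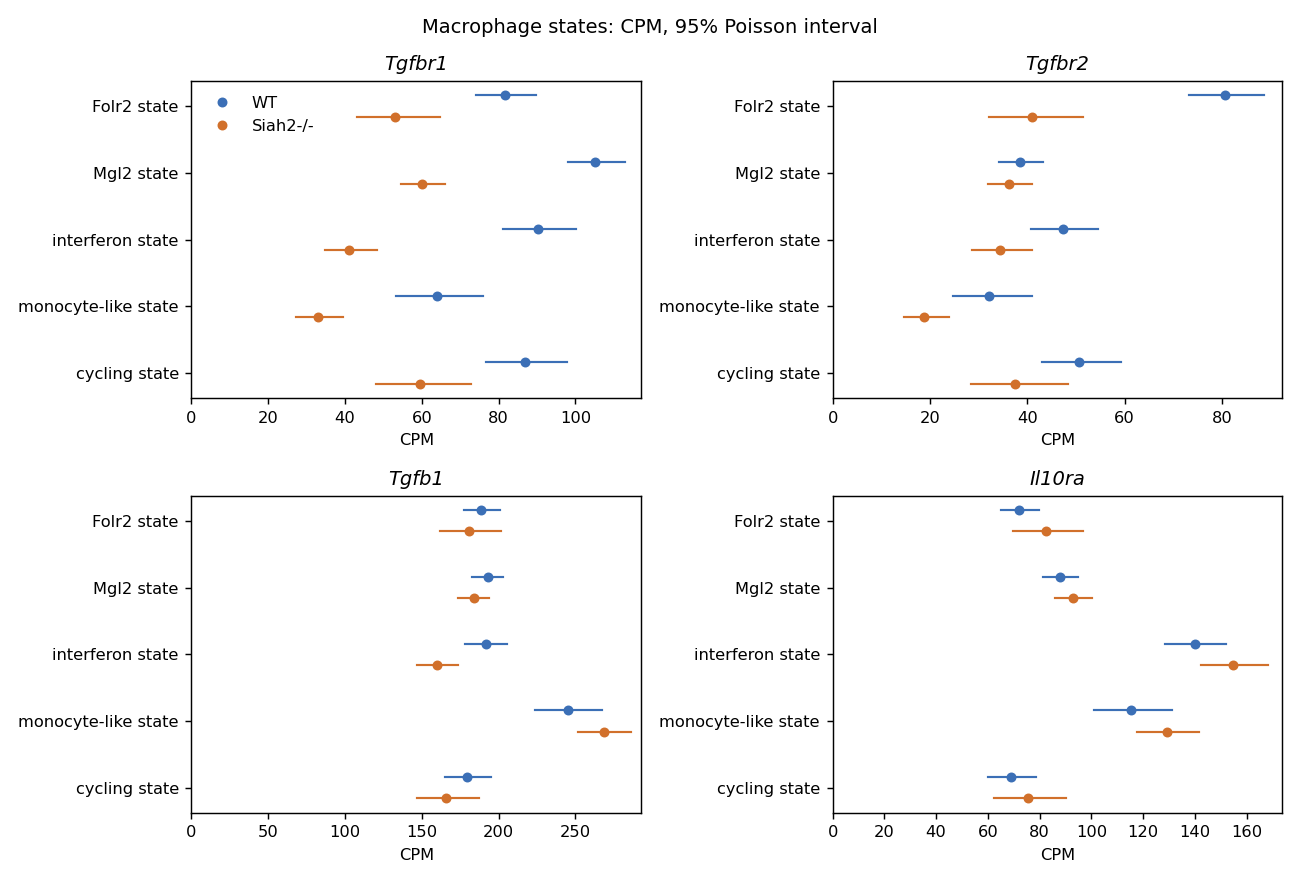
CPM (x axis) of Tgfbr1, Tgfbr2, Tgfb1 and Il10ra in 5 macrophage states (y axis), WT in blue and Siah2-/- in orange, with 95% Poisson intervals. Tgfbr1 is lower in Siah2-/- in each state, Tgfbr2 most in the Folr2 state (80.7 and 40.9 CPM), and Tgfb1 and Il10ra differ little.

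Tgfbr2 followed another pattern over the states. In WT it was highest in the Folr2 state at 80.7 CPM (73.2 to 88.7), apart from the next level, 50.6 CPM in cycling macrophages. In Siah2-/- the Folr2 state was at 40.9 CPM (32.1 to 51.4), a ratio of -0.98 (-1.35 to -0.62), and stood within counting error of its neighbours in the order. The monocyte-like state was also lower, from 32.2 to 18.9 CPM (-0.77, -1.28 to -0.26), as was the interferon state (-0.46, -0.80 to -0.12). Over barcodes with at least 1000 UMIs both were within counting error, at -0.34 (-0.82 to 0.13) and -0.28 (-0.63 to 0.05), and the interferon ratio was also within it by cluster (-0.13) and with the stricter gate (-0.28). The Mgl2 state (38.4 and 36.1 CPM) did not leave counting error as gated, nor did cycling macrophages (-0.44, -0.89 to 0.00), although by cluster the ratios were -0.36 (-0.66 to -0.07) and -0.33 (-0.66 to -0.00). Outside macrophages Tgfbr2 lay in a narrow range of 36.9 to 44.8 CPM in CD4 and CD8 T cells, T cells with NK receptors, NK cells and CD45-negative cells, with no ratio beyond counting error as gated. By cluster it was 0.87 (0.26 to 1.53) in T cells with NK receptors. The WT CD4 T value rests on 5 UMIs, 40.0% of them in 1 cell. Tregs were at 24.6 and 31.6 CPM.

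In lymphocytes Tgfbr1 was low. It ranged from 5.42 to 13.4 CPM in CD8 T cells, T cells with NK receptors, NK cells and Siah2-/- CD4 T cells, and it had no UMI in the 15 WT CD4 T cells. Tregs held 25 UMIs in WT (27.9 CPM, 18.1 to 41.2) and 13 in Siah2-/- (13.3 CPM, 7.06 to 22.7). Their ratio of -1.07 (-2.16 to -0.05) was beyond counting error, but it was 0.01 (-1.10 to 1.14) in the cluster led by Tregs. In CD45-negative cells Tgfbr1 was at 12.6 and 12.4 CPM.

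Il10ra was a leukocyte transcript with its highest level in interferon macrophages, at 140 CPM (129 to 152) in WT and 155 CPM (142 to 168) in Siah2-/-. Monocyte-like macrophages followed at 115 and 129 CPM, and in WT the intervals of these neighbours overlapped. DC, at 83.3 and 94.9 CPM, did not differ from the Mgl2 state beyond counting error. Tregs, which are high in Il10, were among the lower gates for its receptor, with 39.1 and 45.9 CPM and a ratio of 0.23 (-0.44 to 0.91). In both libraries their interval overlapped those of CD8 T cells and T cells with NK receptors, so a low level was not particular to Tregs. NK cells had 199 UMIs in WT and 420 in Siah2-/-, 49.2 CPM (42.6 to 56.6) and 72.7 CPM (65.9 to 79.9), a ratio of 0.56 (0.31 to 0.81). CD8 T cells were lower (56.8 and 44.6 CPM, -0.35, -0.60 to -0.10). With cells thinned to 2000 UMIs both ratios were within counting error, at 0.24 (-0.30 to 0.79) in NK cells and -0.21 (-0.80 to 0.40) in CD8 T cells. T cells with NK receptors stood at 55.6 and 43.3 CPM (-0.36, -0.71 to -0.00), at the edge of counting error, and their ratio was within it under 7 of the 8 alternatives that gave an interval. Of 9980 genes in CD8 T cells 13.9% were higher and 20.3% lower, and of 9049 in T cells with NK receptors 11.9% were higher and 15.4% lower. CD45-negative cells had 52 and 26 UMIs, 2.62 and 6.86 CPM (1.39, 0.65 to 2.09), beside the Ptprc difference given above. Free RNA would give 43.8 and 15.8 of these UMIs, and with it subtracted the ratio was 2.70. The small macrophage difference (92.7 and 103 CPM, 0.16, 0.07 to 0.24) was within counting error with 1 lowest UMI count for both libraries and over barcodes of at least 1000 UMIs.

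Ebi3 did not leave counting error in any gate or reported state as gated. It was shared between Tregs (63.7 CPM, 48.2 to 82.5, and 50.0 CPM, 37.0 to 66.1), mature DC (60.1 and 78.7 CPM) and macrophages (47.6 and 45.9 CPM). The intervals of these 3 overlapped in WT. The Treg ratio of -0.35 (-0.93 to 0.23) was -0.73 (-1.40 to -0.08) with the stricter gate and -0.52 (-0.88 to -0.17) over barcodes with at least 1000 UMIs, both beyond counting error. CD4 T cells were at 66.4 and 32.5 CPM (-1.03, -2.06 to 0.17), from 9 and 54 UMIs with 33.3% of the former in 1 cell, and over barcodes with at least 1000 UMIs the ratio was -0.91 (-1.37 to -0.44) from 65 and 105 UMIs, beyond counting error. In macrophages the ratio of -0.05 (-0.17 to 0.07) was based on 1097 and 1132 UMIs. The lowest macrophage state was the monocyte-like one, at 29.7 and 32.4 CPM. CD8 T cells, T cells with NK receptors, NK cells and CD45-negative cells were at 0.791 to 4.21 CPM, under the 25.1 and 27.6 CPM of empty droplets.

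Areg had high levels in a few cells of several gates. Mature DC, gated on Ccr7, Fscn1, Ccl22 and Ccl17, had 1 UMI in 45 WT cells and 38 UMIs in 8 of 67 Siah2-/- cells, 28.9% of them in 1 cell. The levels were 2.14 CPM (0.0543 to 11.9) and 62.3 CPM (44.1 to 85.5), and the log2 ratio was 4.86 (2.30 to 10.2). Over barcodes with at least 1000 UMIs it was 3.06. Among 4579 genes in this gate 11.4% were higher and 10.7% lower beyond counting error, and in DC, where no member was as gated, 9.38% and 7.57%. With the stricter gate Il10ra in DC went from 0.19 to 1.09 (0.40 to 1.81). CD45-negative cells had the opposite direction, with 227 UMIs in 91 of 767 WT cells and 8 UMIs in 6 of 151 Siah2-/- cells, 37.5% of them in 1 cell, or 11.4 CPM (10.0 to 13.0) and 2.11 CPM (0.911 to 4.16). The ratio was -2.44 (-3.67 to -1.44), and it was -0.65 over barcodes with at least 1000 UMIs, where 45.5% of the Siah2-/- barcodes of this gate belonged to the cells analysed against 81.3% in WT. In this gate 17.1% of 11831 genes were higher and 17.5% lower. CD45-negative cells held 59.4% of the Areg UMIs of WT cells and 2.01% of those of Siah2-/- cells, while Tregs held 7.33% and 24.9%.

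Areg in the other gates was sparse. CD8 T cells had 9 and 35 UMIs (1.11, 0.02 to 2.35), 31.4% of the latter in 1 cell, and the ratio was within counting error without the top cells and over barcodes with at least 1000 UMIs (0.26). Macrophages had 11 and 35 UMIs, or 0.477 and 1.42 CPM, below the 13.1 and 10.6 CPM of empty droplets, where free RNA would give 18.4 and 16.4 UMIs, and 1 cell held 22.9% of the Siah2-/- UMIs. The ratio of 1.57 (0.56 to 2.70) was 0.09 and within counting error with the stricter gate. The Folr2 state, with 1 and 4 UMIs, had a ratio of 3.56 (0.22 to 9.18), which lost its sign with other gates. Over all cells Areg was at 5.90 and 6.74 CPM and did not differ beyond counting error (0.19, -0.01 to 0.40).

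**Figure D5:**
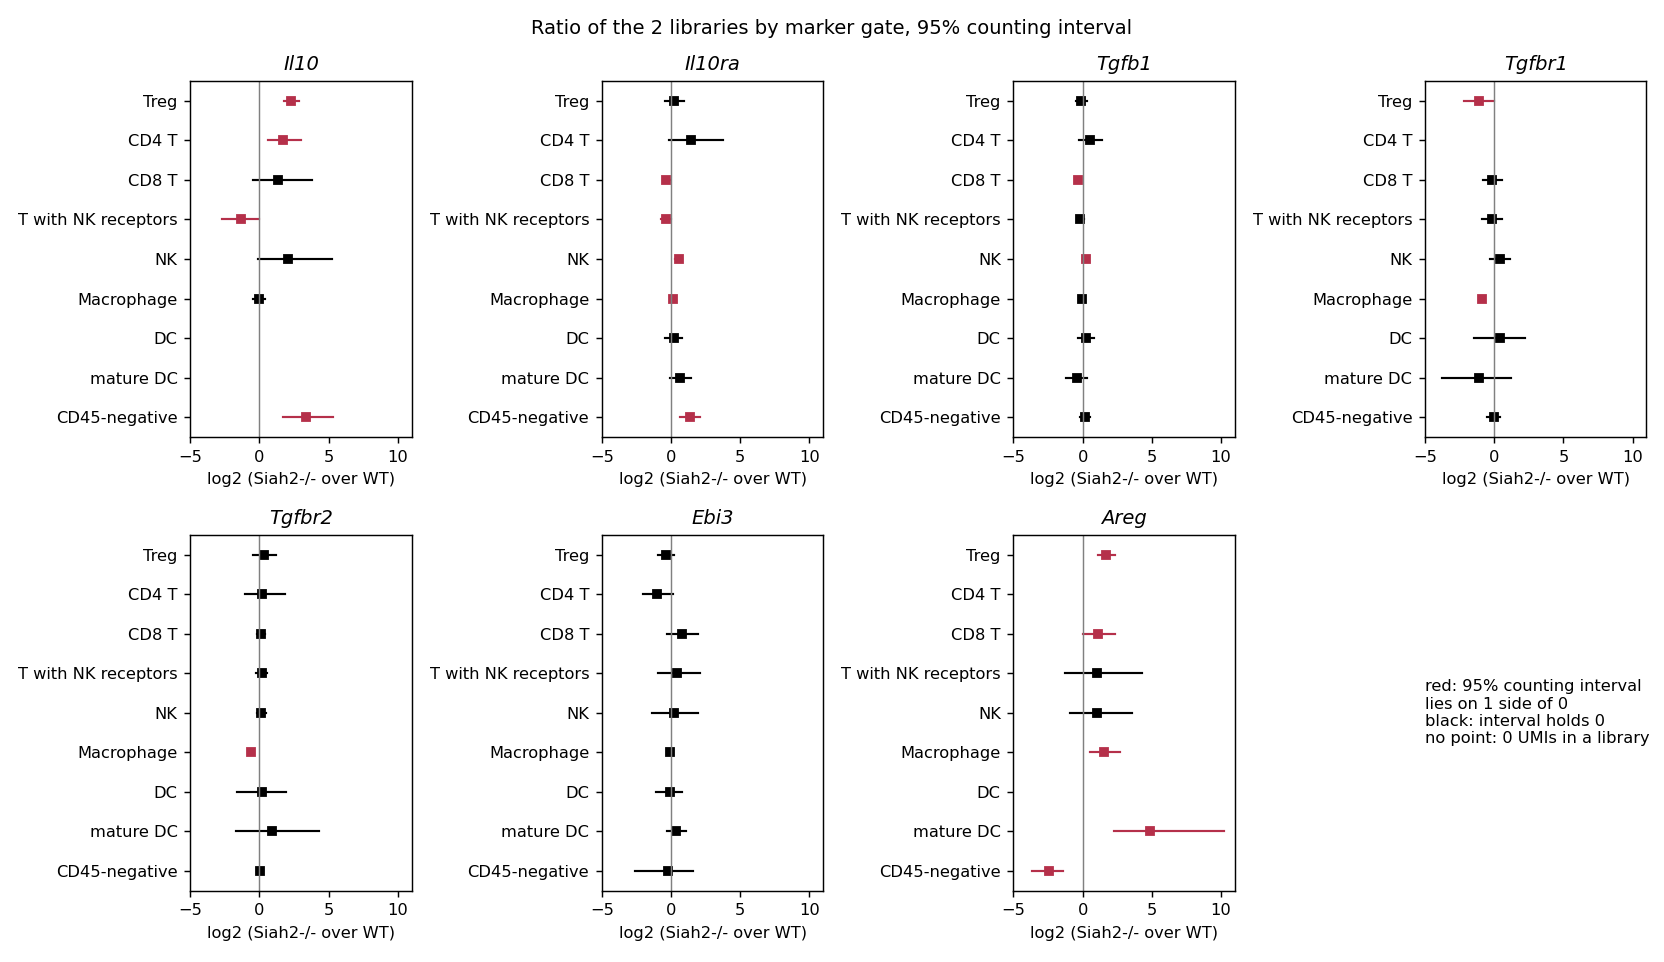
Log2 ratio of Siah2-/- to WT CPM (x axis) for each gene in 9 gates (y axis). Squares are ratios and lines 95% counting intervals, red where the interval lies on 1 side of 0, and gates with 0 UMIs in a library have no square. Il10 and Areg are to the right of 0 in Tregs, at 2.29 and 1.69, Tgfbr1 and Tgfbr2 to the left in macrophages, at -0.87 and -0.61, and Ebi3 has no red interval.

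Of 13 genes of the IL-10 axis, 12 reached 20 UMIs in Tregs, 3 were at least 2-fold higher and 0 at least 2-fold lower, with a median log2 ratio of 0.24 against -0.05 over all 6795 genes. Of those 6795 genes, 3.96% were at least 2-fold higher and 4.02% at least 2-fold lower. The 3 higher genes of the axis were the member Il10, Socs3, a feedback inhibitor of STAT3 signalling (26.8 and 72.5 CPM, 1.43), and Nfil3, a transcription factor (43 and 98 UMIs, 1.06). In macrophages all 13 were measured and 2 were at least 2-fold higher: Nfil3 (28.4 and 96.3 CPM, 1.76) and Il1rn, which encodes the interleukin 1 receptor antagonist (118 and 263 CPM, 1.16). The macrophage median was 0.22 against -0.04 over 11843 genes. In this gate 4.83% of genes were at least 2-fold higher and 3.14% at least 2-fold lower.

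Of 31 genes of the TGF-β axis, of which 30 were in the table, 17 reached 20 UMIs in Tregs, and 1 was at least 2-fold higher and 1 lower, with a median of 0.32 against -0.05 over all genes. Over all genes in this gate 3.96% and 4.02% passed these limits, so that 1 of 17 in each direction was near the background. The higher one was Furin, a protease that processes the TGF-β1 precursor (40.2 and 82.7 CPM, 1.04), and the lower one was Tgfbr1. In macrophages 25 were measured and 2 were at least 2-fold higher, Thbs1 (40.2 and 185 CPM, 2.20), which encodes thrombospondin 1, an activator of latent TGF-β, and Tgfb3 (2.26 and 4.71 CPM, 1.06). The median there was -0.06. Of 6 measured genes of the IL-35 and IL-27 axis in Tregs, the receptor chain gene Il12rb2 was at least 2-fold higher (22.3 and 54.1 CPM, 1.28), and the list median was 0.28. In macrophages 2 of 7 were higher, Il12rb2 (0.911 and 3.86 CPM) and Stat4 (2.82 and 5.68 CPM), with a median of 0.46. The part of free RNA in these low levels was not tested. Among 5 measured genes of the epidermal growth factor family in macrophages, Hbegf, another ligand, was higher with Areg (1.74 and 4.59 CPM, 1.40), with a median of 0.49. The Areg ratio there was within counting error by cluster (0.29) and with the stricter gate (0.09). In Tregs 2 genes of the family were measured, with a median of 0.86. Of 6 transcription factors linked to Il10 in T cells, Nfil3 was at least 2-fold higher in Tregs, and the list median was 0.18. In macrophages the list median was 0.29, with Prdm1 (17.4 and 40.6 CPM, 1.22) and Nfil3 higher and Irf4 (1.30 and 0.609 CPM, -1.10) lower.

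Each member had a set of genes with a like pattern over 27 profiles of gate and library with at least 30 cells, by Pearson's r of log2(CPM + 10) among 5022 genes. These profiles share libraries and depth, and r is given as a description. Il10 was most like Oxsr1 (0.94), Cd4 (0.94), which served in the gates, and Sdf4 (0.87). Areg was most like Fam110a (0.86), Sdf4 (0.80) and Dusp4 (0.80). Tgfb1 was most like Ncf4 (0.95), Vav1 (0.94) and Myo1f (0.93), and Il10ra most like Plek (0.96), Fgl2 (0.94) and Fam49b (0.93). Tgfbr1 was most like Ang (0.96), Tmem86a (0.95) and Apoe (0.95). Tgfbr2 was less closely matched, by Ctsd (0.85), Tmem208 (0.84) and Ten1 (0.84), and Ebi3 by Snx20 (0.92), Grb2 (0.91) and Bmp2k (0.90). Among the members, Il10ra and Tgfb1 had an r of 0.82 and Il10 and Areg of 0.75.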

How the data were processed

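The authors made UMI counts per gene and barcode with Cell Ranger (after bcl2fastq) on mm10/GRCm38, in versions not given in the sources used here. They removed cells in the extreme 2% of detected genes or with over 10% mitochondrial transcripts. They deposited unfiltered count matrices of 27998 genes, a raw count table of 14654 genes, and a table of natural log values of 1 plus UMIs per 10000, scaled per cell by the authors. The natural log table gave only the list of cells, 4512 of the 4524 WT and 5563 of the 5576 Siah2-/- columns of raw counts. Counts of member genes were equal in table and matrices. The protocol states 5 CD45+ to 1 CD45- cells, and the design text 1000 per 20000.

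Groups came from the genotype labels. Gates needed at least 2 marker UMIs and, per 10000, 5 for T, 4 for NK, 3 for macrophage, 2 for DC, 10 for mature DC and 5 for CD45-negative cells. Their thresholds were set after the marker distributions had been seen, and the members and lists were chosen with earlier results of these data known. The stricter gate doubled every limit, also those that set mixed barcodes apart. A gate under it could therefore gain cells with some markers of other types. UMIs were summed per gate and library. The values of 1 macrophage state are not reported here. CPM had exact Poisson, shares exact binomial (Clopper-Pearson) and ratios conditional binomial 95% intervals (Python 3.11.15, scipy 1.17.1). Intervals were run on simulated Poisson counts: with 200 genes changed 2-fold among 6795 in Tregs, 73.0% were called, as were 3.61% of unchanged genes. The simulation drew from the model that the intervals assume and left out the clumping of UMIs in single cells. It therefore checks the code and does not give the error rate of calls in these data. Named genes were the 7 members, the 3 most like each, and at most 3 list genes per direction past 2-fold with 20 UMIs. Free RNA was read from empty droplets of 10 to 100 UMIs. Alternatives used Seurat 5.3.0 (R 4.3.3; 1967 variable genes, 20 dimensions, resolution 1.5) and Scrublet in scanpy 1.11.5.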

Additional observations from a re-analysis of the deposited data

Results flagged for a closer look

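Il10, Il10ra, Tgfb1 and Areg had ratios of opposite sign, each beyond counting error, in different gates. None of these differences between gates was tested, since each genotype had 1 library. Il10 had a log2 ratio of 2.29 in Tregs and -1.33 in T cells with NK receptors, and 1 WT cell decided the latter. Il10ra had 1.39 in CD45-negative cells, from 52 and 26 UMIs of which free RNA would give 43.8 and 15.8, and -0.35 in CD8 T cells. Tgfb1 had 0.22 in NK cells and -0.31 in CD8 T cells. Areg had 4.86 in mature DC, from 1 and 38 UMIs, and -2.44 in CD45-negative cells.

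Empty droplets, which entered no comparison of cells, also differed between the libraries. Il10ra was at 58.1 CPM in WT and 77.9 CPM in Siah2-/- droplets, a log2 ratio of 0.42 (0.18 to 0.67), and Tgfb1 at 78.0 and 99.6 CPM, a ratio of 0.35 (0.14 to 0.56). The other 5 genes did not leave counting error there. The direction is that of the ratios over all cells, 0.50 for Il10ra and 0.32 for Tgfb1, and the part of free RNA in those was not tested.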

How the results depend on the processing

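No paired analysis was possible because each genotype had 1 library and no test was made. Of 836 values of member ratios under 9 alternatives, 778 stayed within the counting interval of the reported value, and 50 left it. In 8 others, a ratio beyond counting error as reported changed sign. The Il10 ratio in Tregs was 0.93 over all barcodes with at least 1000 UMIs and 2.96 with cells thinned to 2000 UMIs, and was above 0 under each alternative run. Among barcodes split by depth, chosen after seeing the data, it was 0.62 for 3000 to 4895, 0.56 for 4896 to 6669 and 1.40 for 6670 or more UMIs, and 1.34 with Foxp3 barcodes that also carried macrophage markers. For Il10 in CD4 T cells it was 1.59 at 1000 to 2999, -0.58 at 3000 to 4895 and 1.69 at 6670 or more UMIs. The Il10 ratio in macrophages was -0.70 with the stricter gate and 0.45 over barcodes with at least 1000 UMIs, where the Tgfb1 ratio was -0.083. The number of ratios beyond counting error, 19 of those in 9 gates with UMIs in both libraries, was 6 with thinned cells, which keep few UMIs, and 15 to 21 under the others. Such calls were common over all genes in these gates. They ranged from 5.53% higher and 7.33% lower in CD4 T cells to 19.9% and 27.7% in macrophages. The count is therefore no result about the members. The 8 changes of sign were for Il10 in T cells with NK receptors (1.60 by cluster, 1.04 without top cells), for Il10ra with thinned cells (0.48 in T cells with NK receptors, -0.24 in CD45-negative cells), for Tgfbr1 in Tregs (0.0083 by cluster, 0.69 thinned) and for Areg in the Folr2 state, 1 and 4 UMIs (-0.0042 by cluster, -0.63 with the stricter gate). The cause of these was not tested. Scaling by the median gene ratio moved no ratio by more than 0.07. Of 56 member levels, 6 moved, as did 49 of 56 shares under other thinning and 6 of 40 list counts. With 1 library a genotype, depth limits the precision of every value and says nothing of the spread between animals.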

Other observations

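Il10 was spread unevenly over barcode sizes. In WT it stood at 39.1 CPM in barcodes of 1000 to 2999 UMIs and 33.5 CPM in those of 3000 to 4895, then 7.72 CPM at 4896 to 6669 and 3.97 CPM above. In Siah2-/- the same ranges held 62.6, 39.3, 36.2 and 10.1 CPM. Barcodes of 4896 to 6669 UMIs are among the cells analysed in Siah2-/- alone.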
